A study of Schizosaccharomyces pombe with 8 samples.

Results

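The steady-state RNA of fission yeast lysates was compared between cells grown with the histone deacetylase inhibitor trichostatin A (TSA) and untreated cells. The members were all annotated entries of the deposited expression table other than coding-sequence rows, 9139 of 19343 rows. Of these, 28 pseudogene rows repeated the position of another entry, which left 9111 features: protein-coding genes, annotated non-coding RNAs, XUTs (transcripts stabilised when the exonuclease Xrn1 is absent), further non-coding units called nc-TUs in this text, and structural RNAs. In 411 of the kept features no read was seen in any input library.

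All cells were Schizosaccharomyces pombe in exponential growth and expressed Rpb3, a subunit of RNA polymerase II, with a flag tag. The treated group received TSA at 20 µg/ml for 2.5 h, and the control group received none. Each group consisted of 2 biological replicates, and from each lysate an input library and a library of the RNA bound to Rpb3 (nascent RNA) were sequenced. A lysate of flag-tagged Saccharomyces cerevisiae was mixed in at 1 part to 50, but the input values were scaled by the authors to total mapped reads, so a change that affected all transcripts alike would not be seen here. The design isolates no single enzyme, since TSA acts on several deacetylases and no deacetylase mutant was among these libraries.

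Histone deacetylases remove acetyl groups from histone tails, and in fission yeast the enzymes Clr3, Clr6, Hos2 and Sir2 help to keep heterochromatin, subtelomeric genes and many genes of the sexual cycle silent during vegetative growth. TSA blocks the zinc-dependent enzymes of this group (Clr3, Clr6 and Hos2) but not Sir2, which depends on NAD. Meiotic messages are in addition destroyed after transcription by the RNA-binding protein Mmi1 and the nuclear exosome, so the amount of RNA in a lysate reflects both synthesis and decay.

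The input libraries held 8104143 to 12591213 reads on the kept features, with a median of 42 to 64 reads per protein-coding gene. Replicates correlated at 0.978 (untreated) and 0.980 (TSA) on the log2 scale over features, and libraries of different groups at 0.952 to 0.958. A value below is a normalised read number, the read number of a feature after the authors' scaling to library size. Changes were taken on log2(value + 1.18), which understates the change of features with few reads. A feature is said to have risen or fallen where limma gave a Benjamini-Hochberg adjusted p below 0.05 over all features tested and the change was at least 2-fold. The p-values rest on 2 libraries a group. The spread of each feature was drawn towards a trend over all features, with 14.3 prior degrees of freedom, so they do not measure the spread of that feature alone. In bulk lysates a change in every cell and a larger change in some of the cells cannot be told apart.

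Of 7245 features tested, 328 (4.53%) rose and 113 (1.56%) fell in TSA. Among 4952 protein-coding genes, 203 (4.1%) rose and 96 (1.94%) fell. Counts in the gene lists below are to be read beside these shares. On the log2(value + 1.18) scale the largest fitted rise was 31.7-fold and the largest fitted fall 4.96-fold, while the depth-scaled read ratios given below for some genes with few control reads are larger. The 2 groups did not overlap for 57.8% of all features, most of them with differences below 2-fold. Rises made up 8.19% of protein-coding genes with a mean under 5 normalised reads and 1.69% of those over 100, whereas falls made up 0.862% and 0.977% of the same bins. Standard errors of the log2 changes had medians of 0.546 in the lowest bin and 0.143 in the highest. The number of rises depended on both treated libraries: 205 were called without TSA input 1 and 214 without TSA input 2. Falls depended on the second control library, with 70 called without untreated input 2. A total of 150 rises and 37 falls were called with every library left out in turn.

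**Figure D1:**
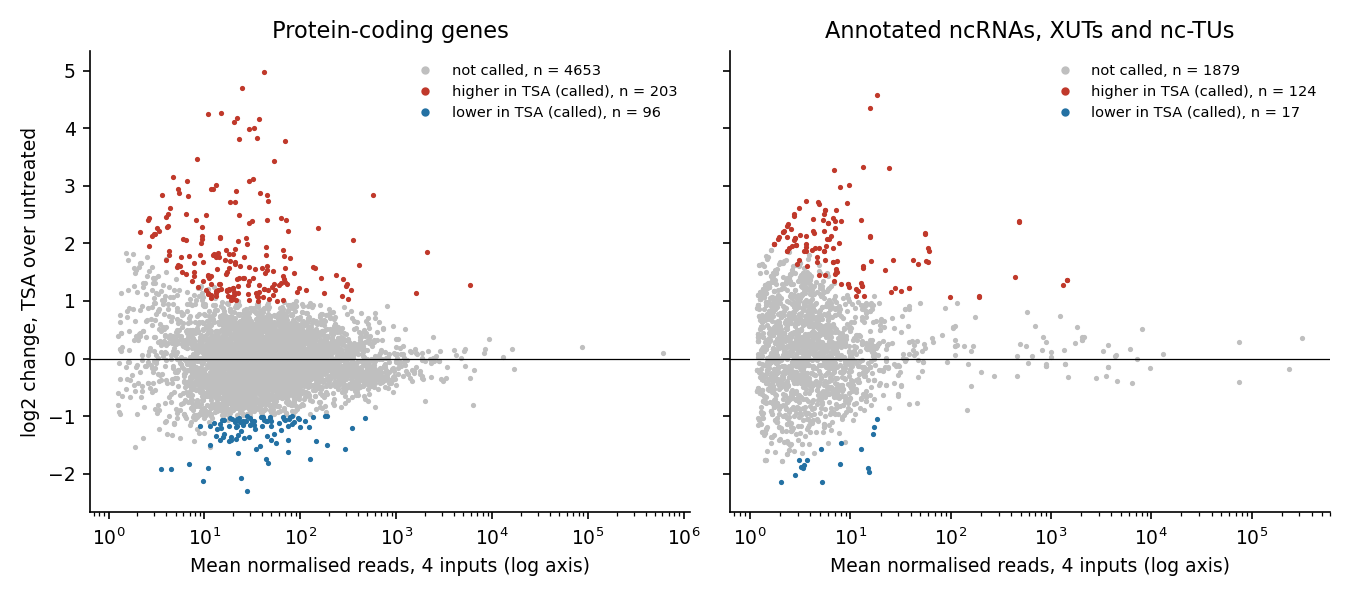
Log2 change of input RNA (TSA over untreated, vertical axis) against the mean normalised read number of the 4 input libraries (log axis) for protein-coding genes (left) and for annotated ncRNAs, XUTs and nc-TUs (right); each point is 1 feature, red where it rose, blue where it fell and grey where it was not called. Among protein-coding genes 203 rose and 96 fell, and the rises reach further from 0 than the falls.

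Many genes of the sexual cycle rose. Of 45 tested core meiosis genes 11 rose (24.4%, beside 4.1% of protein-coding genes) and none fell. Their median log2 change was 0.72 against -0.05 for all protein-coding genes. Of 97 tested mug genes (named for up-regulation in meiosis) 16 rose (16.5%). Of 19 tested meu genes (meiotic expression up-regulated) 5 rose (26.3%), and neither list had falls. These lists share some members. The 11 core genes were dmc1, mei2, spo13, atf21, rec24, bqt1, rec12, rsv1, rec11, mes1 and dli1, with log2 changes of 4.71 to 1.35. The numbers were smaller without TSA input 2, when 6 core meiosis genes and 10 mug genes were called, and DESeq2 called 2 core meiosis genes, 8 mug genes and 3 meu genes.

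The master regulator of meiotic entry, mei2, an RNA-binding protein that sequesters Mmi1, measured 6.50 and 10.03 without drug and 89.0 and 110 with TSA. Both treated libraries lay far above both controls, a 10.8-fold difference (log2 3.43, SE 0.25, adjusted p = 2.2e-07). The meiotic recombinase gene dmc1 was almost absent from untreated cells, with 0 and 2 reads, and had 79 and 57 reads in TSA. The ratio of its depth-scaled reads was 59.1 with a 95% counting interval of 16.0 to 493, and the fitted change was 4.71 (SE 0.43, adjusted p = 2.0e-06). The gene spo13, which encodes a spindle pole body protein, had 1 and 0 reads untreated against 30 reads in both treated libraries together, a ratio of 26.1 (95% counting interval 4.33 to 1064, adjusted p = 0.00127), and DESeq2 did not call it (adjusted p = 0.0898). The transcription factor gene atf21 had no read in either control and 15 in TSA (adjusted p = 0.00955), and the 95% counting interval of its ratio began at 3.12. With 3 reads over the control group taken as a floor, atf21 was 4.34-fold higher in TSA. It lost the call without TSA input 1 (adjusted p = 0.12) and without TSA input 2 (adjusted p = 0.0942).

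The meu genes with the largest rises were meu6, meu14 and meu10. For meu6 the controls measured 2.17 and 3.65 and the treated libraries 68.9 and 72.6, a 17.9-fold difference (log2 4.16, SE 0.30, adjusted p = 2.2e-07). The gene meu14, which encodes a protein of the leading edge of the forespore membrane, went from 2.17 and 3.65 to 58.3 and 68.3 (16.0-fold, adjusted p = 4.6e-07). For meu10, needed for the spore wall, the values were 9.39 and 11.0 untreated against 77.2 and 82.1 in TSA (7.14-fold, adjusted p = 7.9e-07). In all 3 genes every treated library exceeded every control by a wide margin, and the calls stood without any one library. The gene meu31 measured 6.50 and 4.56 untreated and 22.4 and 22.5 in TSA (3.56-fold, adjusted p = 0.00187). The non-coding meu19 RNA had 0 and 2 reads untreated and 20 and 10 in TSA, a ratio of 13.03 (95% counting interval 3.31 to 113, adjusted p = 0.00447), and it was not called without TSA input 1 (adjusted p = 0.0653).

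Among the mug genes, mug147 measured 5.06 and 5.47 untreated against 54.8 and 51.9 in TSA (8.46-fold, log2 3.08, SE 0.28, adjusted p = 1.6e-06). The gene mug14 lay at 2.89 and 0.912 untreated and at 17.7 and 25.9 in TSA (7.75-fold, adjusted p = 0.00027), and mug28, an RNA-binding protein needed for sporulation, at 0.722 and 3.65 against 17.7 and 27.7 (7.70-fold, adjusted p = 0.00053). No read of mug146 was seen in the controls and 27 in TSA, 7.71-fold above the 3-read floor (95% counting interval from 5.94 upwards, adjusted p = 0.00092). The treated libraries lay above the controls for all 4. The reads of mug14 cannot be separated from those of the non-coding RNA SPNCRNA.1314, which overlaps it on the same strand. Of 5118 protein-coding genes kept, 1150 overlap another entry on the same strand and share this limit. Among the genes named in this text they include mei2, meu10, gal10, sdh3, abc3, wtf11, nde2, obr1, hsp20, cnp1, abc1 and SPAC513.07.

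The promoters of these genes were read for short elements, because several act in known steps of the meiotic programme: the TR-box is bound by the sexual differentiation factor Ste11, and the FLEX element by the meiotic forkhead factor Mei4. The windows ran from 250 bases before to 50 after the gene start for 5117 protein-coding genes, on both strands, read from the RefSeq assembly ASM294v3. At the positions given in the files, 5116 of 5119 coding entries began with ATG in that assembly. The FLEX core GTAAACA stood in 16.6% of all windows, in 20.7% of those of the 203 rises, in 13.5% of those of the 96 falls and in 21 of 51 core meiosis genes (41.2%). Of the 11 core meiosis genes that rose, 6 held it. The 9-letter TR-box TTCTTTGTT stood in 1.99% of all windows and in 1.48% of those of the rises. Searches for the TR-box and FLEX can share letters, as TTCTTTGTTTAC holds both. Shown here are 30-base stretches, 5′ to 3′ along the gene, for mei2, dmc1, meu6, meu14 and mug28, with the match in capitals (TR-box for mei2, FLEX for the others, mostly in its opposite orientation TGTTTAC).
mei2 (chrI:4515166-4515195, minus strand): gccgaccgatTTCTTTGTTcctattttaaa
mei2 (chrI:4515144-4515173, minus strand): attttaaagtTTCTTTGTTttacaaaccct
dmc1 (chrI:3382064-3382093, plus strand): gacgcgttcatTGTTTACatgtagctgcat
meu6 (chrII:454089-454118, plus strand): gtcgatttgttTGTTTACattctcgccaac
meu14 (chrII:4066226-4066255, plus strand): aattgtgcttcTGTTTACaggcaaatctta
meu14 (chrII:4066270-4066299, plus strand): ttttctgaaacGTAAACAatcaacatgccc
mug28 (chrI:1650940-1650969, plus strand): cggtaatttccTGTTTACttttgtttacat
The mei2 window held 3 TR-boxes in all, the meu14 window 3 FLEX matches and the mug28 window 2. A match is only a run of letters, and none was read as binding.

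Of 24 tested mating genes 4 (16.7%) rose (mfm2, isp3, spk1 and map1) and none fell, with a median change of 0.31. The M-factor pheromone precursor mfm2 measured 2.89 and 7.30 untreated against 24.2 and 24.2 in TSA (4.32-fold, adjusted p = 0.0016), and isp3, a spore coat protein, 7.95 and 8.21 against 39.5 and 34.6 (4.12-fold, adjusted p = 0.00014). The pheromone-responsive kinase spk1 lay at 6.50 and 3.65 untreated and at 20.0 and 20.7 in TSA (3.54-fold, adjusted p = 0.00291). The mating-type regulator map1 measured 1.44 and 3.65 against 8.84 and 13.8 (3.45-fold, adjusted p = 0.0164) and was not called without untreated input 1 (adjusted p = 0.0612) or without TSA input 2 (adjusted p = 0.164). The treated libraries were the higher ones for all 4 genes. The list of targets of Mmi1 and of the elimination factor Red1 includes pho1. At pho1 the study reports recruitment of Mmi1 to the overlapping non-coding RNA prt. The rise of pho1 is therefore not read as that of a message bound by Mmi1. Of the 20 tested genes of this list 3 (15%) rose with limma and 1 with edgeR. The 3 were pho1, dli1 and mug45. Only pho1 of these was still called when any one library was left out.

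Glucose-repressed genes had the highest share of rises among lists with over 1 tested gene, 9 of 14, with a median log2 change of 1.91. These are genes of alternative sugar use that cells normally keep low in glucose medium. They were mel1, ght3, gal10, ght6, gal1, inv1, agl1, gal7 and gld1, and DESeq2 and edgeR each called 9 as well. The melibiase gene mel1 had no read in the controls and 66 in TSA, 18.2-fold above the 3-read floor (95% counting interval from 15.1 upwards, adjusted p = 1.7e-05). The galactose pathway enzyme gene gal10 measured 6.50 and 10.9 untreated and 138 and 124 in TSA (13.7-fold, log2 3.77, SE 0.24, adjusted p = 8.1e-08), and both TSA libraries were far above the higher control. The paralogue eno102 of the glycolytic enzyme enolase had 1 read in the controls and 88 in TSA (ratio 76.5, 95% counting interval 13.4 to 3054, adjusted p = 8.6e-06). Of the 18 tested genes of glycolysis and fermentation only eno102 and gpd3 rose. The Rst2 element CCCCTC, which serves glucose-repressed promoters, stood in 2.05% of all windows, in 3 of the 15 listed glucose-repressed genes and in 1 of the 9 that rose.

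Hexose transporters of the ght family divided by member. The gene ght3 rose from 3.61 and 3.65 to 70.1 and 64.8 (14.3-fold, adjusted p = 2.2e-07), and ght6 from 2.17 and 1.82 to 26.5 and 22.5 (8.07-fold, adjusted p = 4.9e-05). The high-affinity glucose transporter gene ght5 measured 131 and 142 untreated and 597 and 544 in TSA (4.15-fold, log2 2.05, SE 0.13, adjusted p = 8.1e-08). For ght1 the values were 8.67 and 10.03 against 36.5 and 28.5 (3.18-fold, adjusted p = 0.0011). In contrast, ght8 measured 748 and 783 untreated and 556 and 506 in TSA, a log2 change of -0.53 (SE 0.13, adjusted p = 0.0113) that did not reach 2-fold. It was the 1 member with a change below 0. The other 3 members, ght7, ght4 and ght2, were not called.

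**Figure D2:**
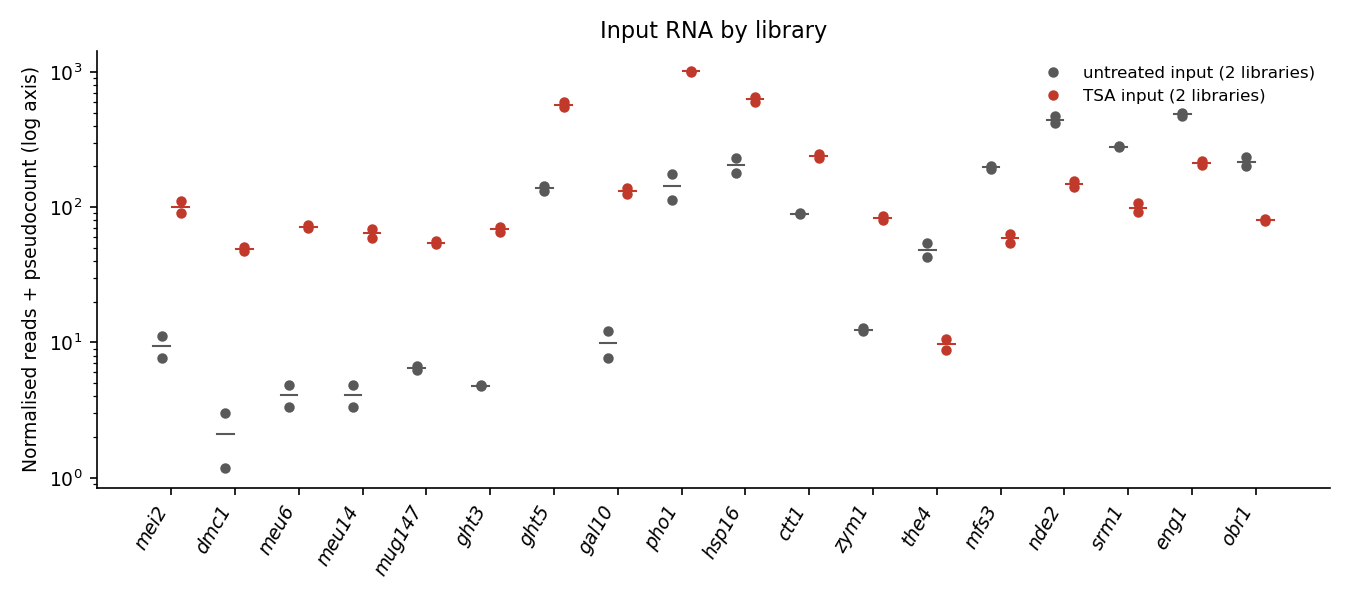
Normalised reads plus the pseudocount (log axis) of 18 named genes in each of the 2 untreated (grey) and 2 TSA (red) input libraries, with a bar at each group mean. The genes were chosen among the called ones and their groups do not overlap, as was the case for 57.8% of all tested features; the first 12 are higher in TSA, among them mei2 (6.50 and 10.03 against 89.0 and 110), and the last 6 are lower.

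The secreted acid phosphatase gene pho1 measured 111 and 174 untreated and 991 and 1020 in TSA, a 7.17-fold difference (log2 2.84, SE 0.17, adjusted p = 7.5e-08). Both treated libraries lay above both controls. The pho1 entry (chrII:4446373-4449053, plus strand) also covers most of the upstream non-coding RNA prt, which the reference annotation places at chrII:4446359-4448918 on the same strand, and reads of the RNAs cannot be separated within the entry. Most reads fell in the coding stretch (chrII:4447557-4448918), which counted 89.6 and 154 untreated and 935 and 952 in TSA. The neighbouring phosphate transporter gene pho84 measured 443 and 607 untreated and 818 and 790 in TSA (log2 0.63, SE 0.15, adjusted p = 0.00955), below the 2-fold limit. The permease gene tgp1 measured 10.8 and 19.2 against 34.8 and 25.9, a log2 change of 1.00 (SE 0.30, adjusted p = 0.0372) just short of 2-fold. The phosphate list as a whole had 1 rise, pho1, and 1 fall, the thiamine-repressible phosphatase gene pho4, among 12 tested genes. Rises in this list numbered 2 with edgeR, without untreated input 2 and without TSA input 2, and falls numbered 2 without untreated input 1 or TSA input 1 and 0 without TSA input 2 or with DESeq2. The value of pho4 went from 78.0 and 84.8 to 47.1 and 28.5 (log2 -1.12, adjusted p = 0.00297), and it was not called without TSA input 2 (adjusted p = 0.0617).

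Of the other genes that the study examined singly, cta3, pdh1, efr3, adh1 and ctr4 were not called, with log2 changes of 0.82, 0.79, 0.67, 0.34 and -0.24. The groups overlapped for ctr4, which lay at 267 and 111 untreated and at 152 and 139 in TSA. The cellulose-binding domain gene cbm1 fell, from 113 and 114 to 40.1 and 32.8 (log2 -1.62, SE 0.18, adjusted p = 1.7e-05).

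Of 31 tested stress genes of the core environmental response 6 rose and none fell, with a median change of 0.44 in the input and -0.11 in the nascent RNA of the same lysates. The small heat shock protein gene hsp16 measured 178 and 229 untreated and 655 and 595 in TSA (3.08-fold, log2 1.62, SE 0.14, adjusted p = 1.6e-06). Its nascent RNA differed by -0.19 (SE 0.35, adjusted p = 0.834). The catalase gene ctt1 measured 89.6 and 87.6 against 245 and 228 (2.65-fold, adjusted p = 7.4e-06), with a nascent difference of -0.15 (SE 0.30, adjusted p = 0.859). The metallothionein gene zym1 rose from 11.6 and 10.9 to 78.9 and 84.7 (6.67-fold, adjusted p = 7.9e-07), and here the nascent difference was 2.1998. For these 3 genes the input groups were well apart. The change in their ratio of nascent to input RNA was not called (limma adjusted p of 0.4, 0.4 and 0.679 for hsp16, ctt1 and zym1). The dehydrogenase gene tms1, at 1.44 and 5.47 against 12.96 and 11.2 (adjusted p = 0.0259), was not called without untreated input 1, TSA input 1 or TSA input 2 (adjusted p of 0.14, 0.123 and 0.0581). The other called members were tps1 and isp6, at 1.20 and 1.13.

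The element TGACGT, the core of sites bound by the stress factors Atf1 and Pcr1, stood in 5.79% of all promoter windows, in 11.3% of those of the rises, in 5.21% of those of the falls and in 10 of 32 core stress genes. It was searched on both strands, and the full palindrome TGACGTCA counts once per strand. It is shown for ctt1 and for atf21, in capitals, 5′ to 3′ along the gene.
ctt1 (chrIII:58875-58904, minus strand): attgtgcaaataTGACGTtggtaattctac
atf21 (chrII:1722146-1722175, plus strand): tttgttttgcagTGACGTcaaaattcatct
Of the 6 core stress genes that rose 1 held the element, namely ctt1.

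Of 29 chaperone genes 2 rose, hsp16 and hsp20, and the median change was 0.23. This share of 6.90% lies near the 4.1% of all protein-coding genes. The gene hsp20 measured 34.0 and 35.6 untreated and 90.7 and 82.1 in TSA (2.43-fold, adjusted p = 0.00023). Among iron uptake genes 3 of 14 rose (21.4%), namely shu1, str3 and abc3, of which shu1 and str3 lie 85.6 and 88.2 kb from an end of chromosome I. The siderophore transporter gene str3 went from 13.003 and 6.39 to 48.9 and 57.0 (5.21-fold, adjusted p = 5.6e-05), and the vacuolar transporter gene abc3 from 36.8 and 45.6 to 104 and 101 (2.46-fold, adjusted p = 0.00018). The haem acquisition gene shu1 had no read in the controls and 21 in TSA, 6.02-fold above the 3-read floor (95% counting interval from 4.53 upwards, adjusted p = 0.00261). It was not called without TSA input 1 (log2 2.78). The glutamate dehydrogenase gene gdh2 rose from 54.9 and 48.4 to 242 and 266 (4.84-fold, adjusted p = 1.2e-07), and was the 1 rise among 19 genes (5.26%) of nitrogen and amino acid uptake and use. The centromeric histone gene cnp1, 1 of 11 histone genes, measured 10.8 and 10.03 against 29.5 and 22.5 (2.32-fold, adjusted p = 0.0111) and was not called without TSA input 1 (adjusted p = 0.119).

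**Figure D3:**
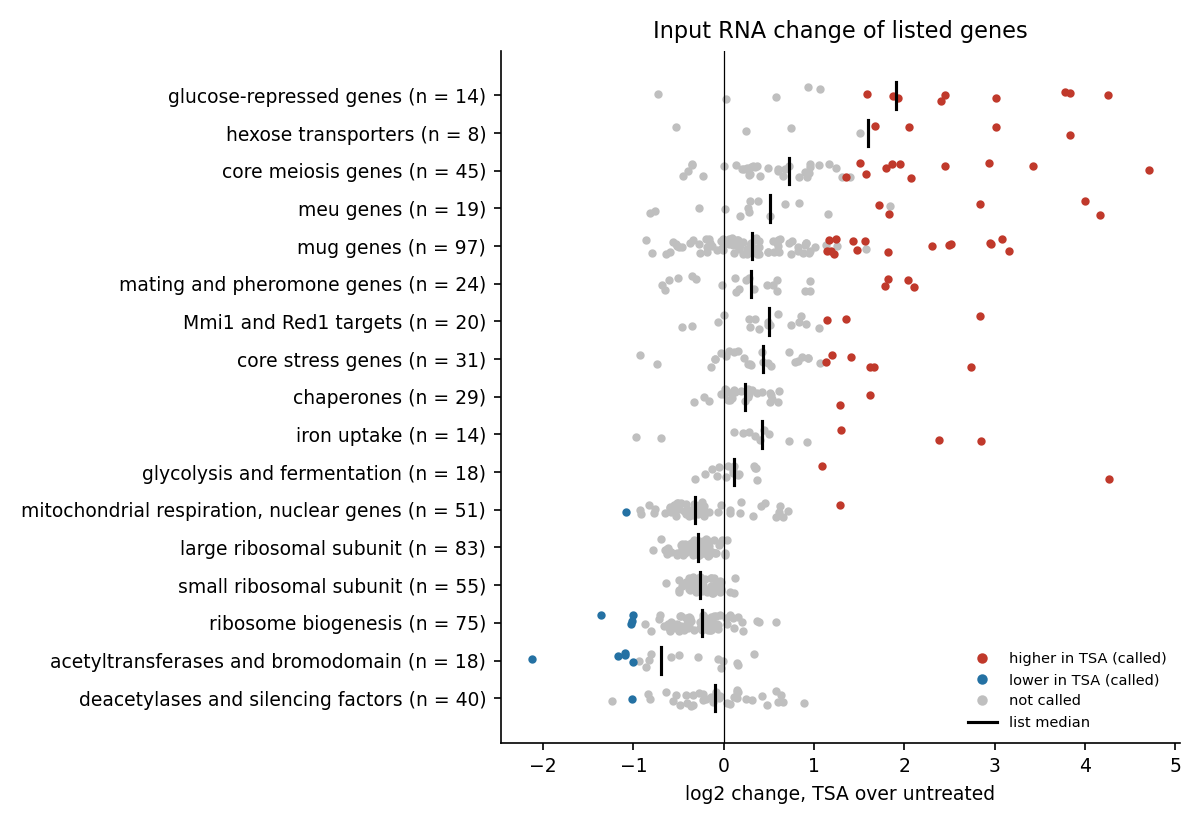
Log2 change of input RNA (TSA over untreated, horizontal axis) of each tested gene in 17 lists (rows, with the number of genes tested), red where the gene rose, blue where it fell and grey where it was not called; a black bar marks each list's median. Glucose-repressed genes have 9 of 14 red points and a median of 1.91, while the 83 genes of the large ribosomal subunit have none called and a median of -0.29.

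Several of the largest rises lay near chromosome ends, in regions where heterochromatin keeps genes low. Some risen genes of the lists above lay there too: mel1 (77.9 kb from an end), ght3 (82.7 kb), shu1, str3 and isp3 (96.0 kb) on chromosome I. On chromosome II these were gal10 (52.2 kb), eno102 (58.1 kb) and pho1 (90.8 kb). List and position were not told apart by a test. Of the 203 protein-coding rises, 150 lay over 200 kb from an end. The largest fitted rise was that of SPBPB2B2.06c, annotated as a phosphoprotein phosphatase, 68.6 kb from an end of chromosome II, which measured 2.17 and 0.912 untreated and 87.8 and 77.8 in TSA (31.7-fold, log2 4.99, SE 0.33, adjusted p = 8.1e-08). The transcription factor gene grt1 went from 1.44 and 3.65 to 48.9 and 62.2 (15.8-fold, adjusted p = 1.6e-06), and aes1, annotated in the phenazine biosynthesis family, from 5.06 and 6.39 to 54.8 and 62.2 (8.67-fold, adjusted p = 1.6e-06). The uncharacterized gene SPAPJ695.02 had 3 reads in the controls and 112 in TSA (ratio 32.4, 95% counting interval 10.8 to 160, adjusted p = 1.6e-06), and the adducin gene SPBC1289.14 had 3 and 123 (ratio 35.6, 95% counting interval 11.9 to 175, adjusted p = 1.6e-06). The But2 family gene SPAC27D7.09c, by contrast in the interior of chromosome I close to mei2, measured 3.61 and 0.912 untreated and 51.3 and 36.3 in TSA (14.0-fold, adjusted p = 9.1e-06). For each of these genes the lower treated library was several times the higher control.

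By distance to the nearer end, 8 of 26 tested genes within 50 kb rose, 28 of 95 between 50 and 100 kb (29.5%), 17 of 227 between 100 and 200 kb (7.49%) and 150 of 4604 farther in (3.26%). Falls numbered 0, 2, 3 and 91 in the same order, the last 59 without untreated input 2. Most genes within 50 kb had too few reads to test, since 84 are annotated there. The mean that admitted a gene to the test included the TSA libraries, so a gene low in the controls could enter through its TSA reads. Within 50 kb, 9 of 38 genes rose without the filter on low values and 2 of 11 at a mean above 20 normalised reads. Between 50 and 100 kb these counts were 28 of 101 and 13 of 52. The rises between 50 and 100 kb lay on chromosomes I (12 of 28 tested) and II (14 of 25), against 2 of 42 on chromosome III, whose ends carry the ribosomal DNA. Median read numbers were lower towards the ends, at 11.7 within 50 kb and 40.8 beyond 200 kb, and whether depth has a part in the shares was not tested. Within 50 kb the rises numbered 4 without TSA input 1 and 5 without TSA input 2. Between 100 and 200 kb they numbered 11 without TSA input 1 and 10 without TSA input 2. Between 50 and 100 kb they numbered 23 to 29 with any library left out.

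**Figure D4:**
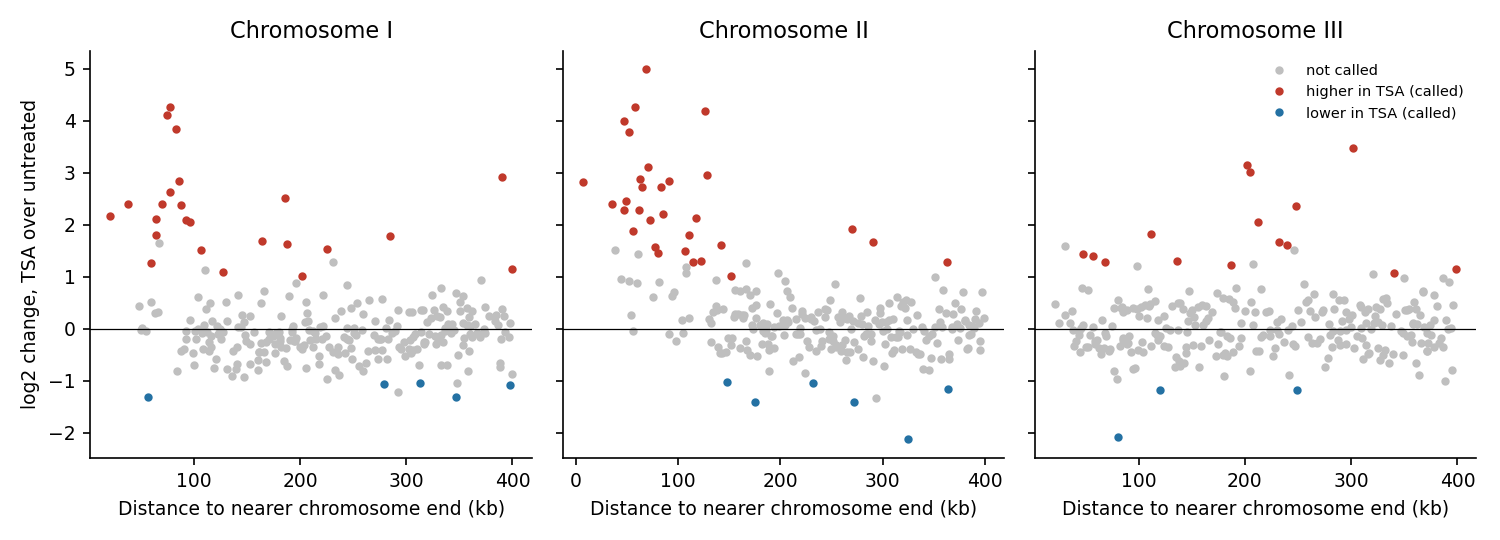
Log2 change of input RNA (TSA over untreated, vertical axis) of tested protein-coding genes against their distance in kb from the nearer chromosome end, for the outer 400 kb of chromosomes I, II and III; red genes rose, blue genes fell and grey genes were not called. Between 50 and 100 kb, 12 of 28 genes on chromosome I and 14 of 25 on chromosome II rose, against 2 of 42 on chromosome III.

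At 1 locus a helicase gene of the subtelomere itself could be read: tlh2 had 0 and 2 reads untreated and 37 in TSA (ratio 16.1, 95% counting interval 4.15 to 138, adjusted p = 0.0023). Its close copy tlh1 had too few uniquely mapped reads to test, and reads common to both copies are lost with unique mapping. The 13 entries of the Tf2 retrotransposon, nearly identical to each other, had none that could be tested. Of 12 tested wtf genes, the repetitive meiotic drivers, 1 (8.33%) rose. This was wtf11 (15.2 and 9.12 against 33.6 and 32.8, log2 1.41, adjusted p = 0.00403), and DESeq2 did not call it (adjusted p = 0.102).

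Among falls, the acyl-coenzyme A thioesterase gene the4 had the largest fitted change, from 52.7 and 42.0 to 7.66 and 9.51 (log2 -2.31, SE 0.27, adjusted p = 2.7e-05). The transporter gene mfs3, annotated in a spermidine family, fell from 189 and 202 to 62.4 and 52.7 (log2 -1.75, SE 0.16, adjusted p = 1.9e-06), and SPCC613.01, another transporter, from 32.5 and 46.5 to 12.96 and 5.19 (log2 -2.08, SE 0.35, adjusted p = 0.001). The reductase family gene SPAC513.07 measured 70.8 and 73.0 against 18.3 and 20.7 (log2 -1.82, adjusted p = 2.2e-05). In each case both TSA libraries lay well below the lower control. The NADH dehydrogenase gene nde2 measured 415 and 469 untreated and 154 and 140 in TSA (log2 -1.58, SE 0.14, adjusted p = 1.5e-06). Further large falls were those of the ubiquinone biosynthesis gene abc1 (log2 -1.57, adjusted p = 0.00052), the peptide transporter gene mdl1 (log2 -1.47, adjusted p = 7.8e-05), the decapping scavenger gene nhm1 (log2 -1.64, adjusted p = 0.00102) and the ribonuclease gene rex1 (log2 -1.74, adjusted p = 0.00071). Completing the 12 largest falls were the cell surface glycoprotein gene pfl3 (log2 -1.51, adjusted p = 0.00032), the spermidine synthase gene srm1 (log2 -1.504, adjusted p = 3.4e-06) and cbm1. None of the 12 lost its call when a library was left out.

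Of 51 tested nuclear genes for subunits and assembly factors of the respiratory chain 1 rose and 1 fell (1.96% each), and the median change was -0.32. The succinate dehydrogenase subunit gene sdh3 measured 119 and 228 untreated and 276 and 595 in TSA (log2 1.29, SE 0.28, adjusted p = 0.00682). It was below 2-fold without untreated input 1 (log2 0.83) and not called without TSA input 2 (adjusted p = 0.0609) or by DESeq2 (adjusted p = 0.355). The gene atp25 went from 63.6 and 56.6 to 30.6 and 25.1 (log2 -1.08, SE 0.21, adjusted p = 0.00273), with a change below 2-fold without untreated input 1 or TSA input 2, and DESeq2 did not call it (adjusted p = 0.0897).

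Of 18 genes of acetyltransferases, the enzymes that oppose deacetylases, and their partners 5 fell, namely rtt109, vid21, nto1, mst2 and mst1, none rose, and the median change was -0.70 in the input against -0.14 in the nascent RNA. The histone H3 lysine acetyltransferase gene rtt109 fell from 12.3 and 20.1 to 1.18 and 5.19 (log2 -2.13, SE 0.47, adjusted p = 0.00749), vid21, of the NuA4 complex, from 53.5 and 56.6 to 25.3 and 22.5 (log2 -1.17, adjusted p = 0.00186), and mst2, a catalytic subunit for H3, from 35.4 and 29.2 to 14.1 and 14.7 (log2 -1.10, adjusted p = 0.0104). The groups did not overlap for these genes. Without untreated input 2 only 2 of the list were called and rtt109 was not (adjusted p = 0.0692), and DESeq2 called none, while edgeR called 4.

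The deacetylase genes themselves were not called. Clr3 RNA measured 58.5 and 72.1 untreated and 44.2 and 58.8 in TSA (log2 -0.34, SE 0.20, adjusted p = 0.269), clr6 differed by 0.14 (SE 0.18, adjusted p = 0.651), hos2 by -0.36 (SE 0.30, adjusted p = 0.461) and sir2 by -0.83 (SE 0.32, adjusted p = 0.0962). The groups overlapped for clr3, clr6 and hos2. Among 40 genes of deacetylases and silencing factors only swi6, the heterochromatin protein that binds methylated histone H3, fell (45.5 and 63.9 against 31.2 and 21.6, log2 -1.02, adjusted p = 0.0101), and it was not called without untreated input 2 (adjusted p = 0.0717) or without TSA input 2 (adjusted p = 0.108).

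None of 83 ribosomal protein genes of the large subunit or of 55 of the small subunit was called by limma, edgeR or DESeq2. The changes ran from -0.78 to 0.04 and from -0.64 to 0.13, with medians of -0.29 and -0.26, and 42 and 25 of the genes had an unadjusted p under 0.05. The promoter element CAGTCACA (HomolD), typical of these genes, stood in 48 of 83 and 29 of 55 of their windows, in 2.48% of all windows and in 1 of the 203 rises. Of 75 ribosome biogenesis genes 4 fell, led by the rRNA methyltransferase gene dim1 at 22.4 and 33.8 untreated and 8.84 and 11.2 in TSA (log2 -1.36, adjusted p = 0.00734). This list had no call without untreated input 2, when dim1 gave an adjusted p of 0.079, and 2 without TSA input 2. Cell separation genes included the endoglucanase gene eng1, which fell from 472 and 498 to 218 and 203 (log2 -1.20, SE 0.13, adjusted p = 1.2e-05), and the septin gene spn2, which rose from 34.0 and 27.4 to 76.0 and 76.9 (log2 1.29, adjusted p = 0.00042). The zinc transporter gene zrt1 fell from 111 and 95.8 to 44.8 and 44.9 (log2 -1.18, adjusted p = 0.00032), in the same list as zym1. In the list of Pap1 targets and drug efflux genes obr1, a quinone dehydrogenase, fell from 199 and 234 to 80.1 and 77.8 (log2 -1.43, adjusted p = 9.1e-06), together with apt1 (log2 -1.42, adjusted p = 0.00023). No proteasome subunit, translation factor, RNA polymerase II subunit, mitosis, MBF target or ergosterol gene was called by limma, edgeR or DESeq2, with 11, 12, 2, 3, 3 and 8 genes of those lists at an unadjusted p under 0.05.

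By class, of 1069 tested annotated ncRNAs 69 rose (6.45%) and 4 fell (0.374%), and of 732 XUTs 52 rose (7.10%) and 8 fell (1.09%). Both had a median log2 change of 0.21. Over all tested features 4.53% rose and 1.56% fell. The filter mean included the TSA libraries, so features low in the controls could enter through TSA reads. Without the filter 69 of 1429 ncRNAs, 59 of 1499 XUTs and 198 of 5039 protein-coding genes rose. At a mean above 20 these counts were 15 of 100, 9 of 42 and 105 of 3645. Of 219 nc-TUs 3 rose (1.37%) and 5 fell (2.28%), with a median of 0.00. Without TSA input 1 there were 29 ncRNA and 22 XUT rises, without TSA input 2 there were 27 and 26, and DESeq2 called 10 and 11. No snoRNA (51 tested), snRNA (4), rRNA (37), tRNA (129) or mitochondrial feature (39) was called by limma, with 9, 0, 3, 35 and 8 of them at an unadjusted p under 0.05. Both edgeR and DESeq2 called 1 tRNA rise. Without untreated input 1, however, 5 tRNAs rose and 6 fell, and 4 mitochondrial features, 3 rRNA entries and 1 snRNA were called. Without TSA input 1 there was 1 rise each among tRNAs and rRNA entries. The nc-TUs had 8 rises and 3 falls without untreated input 1, and 3 rises and 0 falls without untreated input 2.

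**Figure D5:**
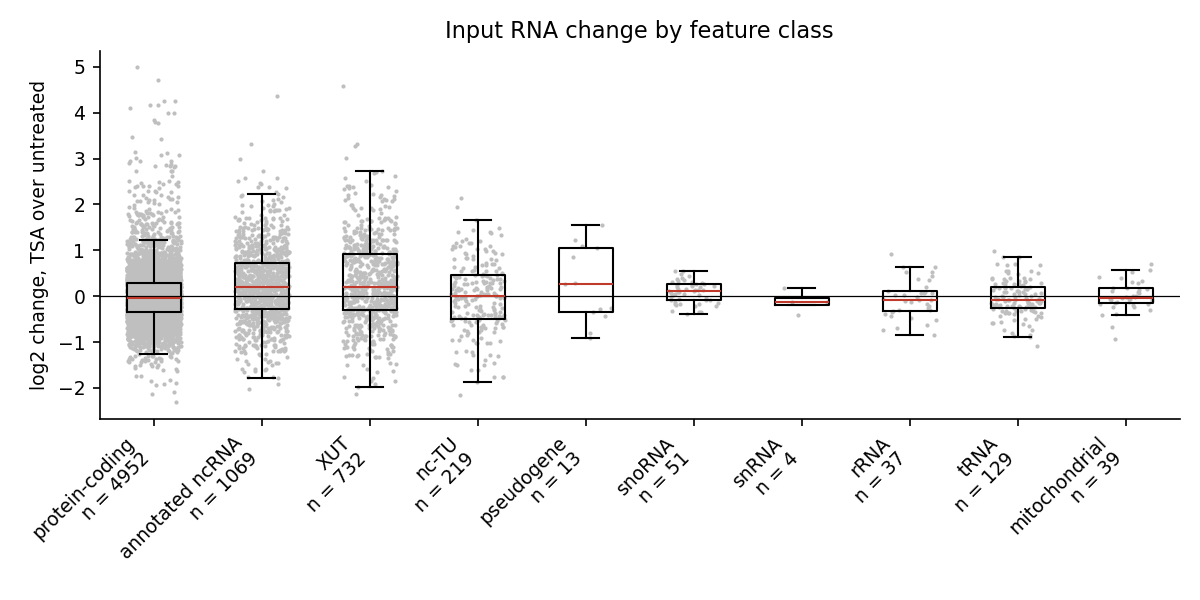
Log2 change of input RNA (TSA over untreated) of every tested feature by class; grey points are features, boxes span the quartiles with the median in red, and whiskers reach the last point within 1.5 box lengths. The boxes of annotated ncRNAs and XUTs are centred at 0.21, and those of snoRNAs, rRNAs, tRNAs and mitochondrial features lie near 0.

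Most of the input reads kept came from structural RNAs. Only uniquely mapped reads were kept, so RNAs with several gene copies lose reads. The shares below are of such reads and are not the composition of the lysate RNA. A total of 45 features overlap a structural RNA on the same strand and carry its reads, and they were left out of these shares. Transfer RNAs held 68.5% and 66.3% of the reads of the untreated inputs and 66.2% and 66.9% of the TSA inputs. Protein-coding genes held 9.21% and 10.5% untreated and 9.74% and 9.41% in TSA, so these groups overlapped. Annotated ncRNAs held 5.01% and 6.22% untreated and 6.77% and 7.03% in TSA (exact permutation test, two-sided p = 0.333, the smallest that 2 against 2 libraries allow). Most of that was 1 RNA, named after its values were seen: srp7, the RNA of the signal recognition particle, with 3.94% and 5.13% untreated and 5.64% and 5.88% in TSA, which the fit over features did not call (log2 0.36, SE 0.48, adjusted p = 0.664). The snRNA share stood apart in untreated input 2, at 2.54% against 1.36%, 1.44% and 1.52% in the other libraries, and so did the rRNA share, at 0.629% against 0.335% to 0.355%.

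The 124 rises among annotated ncRNAs, XUTs and nc-TUs formed 97 loci once overlapping entries on a strand were merged, of which 55 lay antisense to a protein-coding gene, 25 overlapped one on the same strand and 31 did neither. The largest rise was SPAC27E2.02-antisense-1, at 4.33 and 2.74 untreated and 46.0 and 44.1 in TSA (9.94-fold, adjusted p = 3.2e-06). At the eno102 locus, the antisense RNA eno102-antisense-1 measured 81.6 and 254 untreated and 573 and 998 in TSA (5.21-fold, log2 2.38, SE 0.34, adjusted p = 0.00023), and XUT0964 is the same transcript under another annotation. DESeq2 called neither of these entries (adjusted p = 0.0941 and 0.0944). The sense gene eno102 rose as well. That the opposing entries at this locus have such different reads, 2127 and 88 in TSA, shows that reads had been assigned by strand. Antisense to mug30, SPNCRNA.1630 measured 18.8 and 20.1 untreated and 84.8 and 97.7 in TSA (4.48-fold, adjusted p = 2.4e-06). XUT1348, antisense to meu31, measured 26.0 and 22.8 against 90.7 and 100.3 (3.78-fold, adjusted p = 6.1e-06), and meu31 rose too. Of 61 tested genes opposite a rising locus 7 rose (11.5%) and none fell, with a median change of -0.11, beside 61 rises (5.23%) and 35 falls (3.00%) among 1167 genes opposite any tested non-coding feature. The 7 were eno102, grt1, SPBPB2B2.08, hhy1, meu31, cao2 and nrg1. Of these eno102 and grt1 lie 58.1 and 47.4 kb from an end of chromosome II, and meu31 lies 1082 kb from an end. Whether position has a part in this share was not tested.

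Beside the input change, the nascent RNA of the same lysates was scaled in the same way, to total reads. Of 322 input rises with a nascent value, 293 had a nascent change above 0, and of 113 falls 110 were below 0. Of all 7183 features with both values, 3677 had a nascent change above 0 and 3506 below. The median of the rises was 1.75 in the input and 0.95 in the nascent RNA, and that of the falls was -1.19 and -0.55. These features were chosen by their input change, so the medians of input and nascent RNA do not stand on equal terms. For mei2 the values were 3.43 and 3.15, for meu6 4.16 and 2.35, for pho1 2.84 and 1.23 and for ght5 2.05 and 0.68. The glyceraldehyde-3-phosphate dehydrogenase gene gpd3 rose 2.13-fold in the input (163 and 182 against 379 and 359, adjusted p = 4.8e-05) with a nascent change of 0.01, and mug147 rose 8.46-fold with 0.40. The change in the ratio of nascent to input RNA was tested for 7183 features and gave 0 calls with limma at an adjusted p below 0.05 (0% of those tested), with 692 at an unadjusted p under 0.05. With 4 times the pseudocounts, a setting added after the data were seen, 5 features were called, among them mug147 (ratio change -2.16) and meu14 (ratio change -1.63), both at an adjusted p of 0.0306 with limma. The pseudocounts were 1.18 for the inputs and 6.58 for the nascent libraries, which affects low features of the kinds differently.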

How the data were processed

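The table held, per the file headers, 1 signal value and 1 density per annotated feature and library. The authors trimmed adapters with cutadapt, aligned the 50 nt single-end reads with Bowtie, kept uniquely mapped reads with at most 1 mismatch, and scaled each library by 1 factor to its total uniquely mapped reads. The deposited signal values (normalised reads) were whole multiples of that factor in every input library (tolerance 0.001), so whole reads were recovered for count tests. Densities (signal per nucleotide) and the authors' sums over replicates were deposited as well and not used. The annotation and the rule for strand are not given in the sources used here.

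Input libraries were compared with limma 3.58.1 (R 4.3.3, lmFit and eBayes with trend) on log2(signal + 1.18). The pseudocount was the 10th percentile of the values above 0, and features with a mean over it were tested. Calls needed a Benjamini-Hochberg adjusted p below 0.05 over all tested features and 2-fold. The script was first tested on simulated data. Alternatives were other scalings, pseudocounts and filters, a replicate block, each library left out, edgeR 4.0.16 and DESeq2 1.42.0. Named features were, at a mean of at least 20, the 12 largest rises and falls of coding genes and 3 of each other class, up to 4 called members of each list at any level, the genes the study examined singly and 4 deacetylase genes. Members, lists and the promoter motifs were chosen with earlier results of these data known. Counting intervals and floors cover counting error only.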

Additional observations from a re-analysis of the deposited data

Results flagged for a closer look

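The non-coding unit novelncTU_296 was picked out because its input RNA was higher and its nascent RNA lower in both TSA libraries than in both controls. Its input RNA measured 15.9 and 14.6 untreated and 35.3 and 35.4 in TSA (log2 1.16, adjusted p = 0.00572 with limma). Its nascent RNA measured 258 and 266 untreated and 199 and 197 in TSA (log2 -0.3919, SE 0.25). The nascent change was not called (adjusted p = 0.414 with limma). The test of the difference between the kinds of RNA gave an adjusted p of 0.4, and DESeq2 did not call the input change (adjusted p = 0.159). The unit overlaps the gene SPAPB2B4.04c on the same strand.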

How the results depend on the processing

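No named feature changed direction. Which of rises and falls were more numerous changed in some sets, for example among protein-coding genes over 200 kb from a chromosome end (150 and 91) without TSA input 1 (111 and 118), and among nc-TUs (3 and 5) without untreated input 1 (8 and 3). Against 328 rises and 113 falls, requiring a mean above 20 left 131 and 72 (protein-coding rises 105), DESeq2 called 114 and 35 (protein-coding 91 and 33, with 1264 features left without an adjusted p), and 4 times the pseudocount left 62 falls (protein-coding 55). With a library left out, rises ranged from 205 to 337, falls from 70 to 159 and protein-coding falls from 63 to 132. The replicate block gave 373 rises and 136 falls. Same-numbered libraries deviated together at 0.0181 over 2 pairs, so the numbers were not taken as pairs. The other scalings (297 to 326 rises, 86 to 103 falls), a smaller pseudocount (280 and 108), no filter (331 and 116), edgeR (323 and 109) and leaving out hosts of structural RNAs (chosen after seeing the data, 327 and 113) stayed within 1.5 times. In all 3 scalings and 3 tools 113 rises and 32 falls were called. With DESeq2, 29 named features lost their call, among them meu31, meu19, spk1, tlh2, cnp1, swi6 and eno102-antisense-1. Of the values for named features under alternatives, 1166 kept their side of the threshold, 103 lost it and 7 crossed it upwards. The change in the ratio of nascent to input RNA gave 0 calls, but 5 with 4 times the pseudocount (added after seeing the data): urg1, SPAC27E2.02-antisense-1, meu14, mug147 and SPCC1919.05-antisense-2. The cause of these shifts was not tested. Of the counts of called genes per list under alternatives 81 moved by over 1.5 times and 829 did not. Depth limits the genes under 5 normalised reads most, where standard errors had a median of 0.546.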
